A study of Mus musculus with 1457 samples.

Results

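The RUNX family of mouse comprises the transcription factors Runx1, Runx2 and Runx3, and Cbfb is their common non-DNA-binding partner. These 4 genes were taken by their names from the count tables, 4 of the 36131 genes held whole in both tables, and were followed across all 1457 single cells of the series. The cells came from ICR mouse embryos, from the aorta-gonad-mesonephros (AGM), the site where the first blood stem cells form, and each was sorted into a well and sequenced with a modified Smart-seq2 protocol. Every cell carried at least 1 reporter knock-in allele, so no wild-type group was measured. The labels name no embryo and no replicate, so each group of cells is 1 sample.

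The Gfi1/Gfi1b line (Gfi1:Tomato/WT Gfi1b:GFP/WT) gave, at E11.5, 16 cells of the endothelial gate (Endo), 40 of the hemogenic endothelium gate (HE) and 22 of the intra-aortic hematopoietic cluster gate (IAHC), and at E10.5, 74 Endo, 95 HE, 41 transition cells (EHT, endothelial-to-hematopoietic transition) and 42 IAHC. A further 41 Endo, 43 HE and 42 EHT cells had E11.5 in their titles and E10.5 in their stage field and were kept apart as "titled E11.5". From embryos labelled Gfi1:Tomato/Tomato Gfi1b:GFP/GFP, the Gfi1/Gfi1b KO, 42 HE cells were sorted at E10.5. The Runx1b line, in which a red reporter marks the product of the proximal Runx1 promoter, gave mesenchymal (Mes) cells labelled Runx1b:RFP/RFP (91 cells) and Runx1b:RFP/WT (7.34% of all cells), HE cells titled KO (19.01%), HE cells titled heterozygous (het, 17.98%) and 53 Endo cells titled het and labelled Runx1b:RFP/WT, all at E10.5. The genotype field of the HE cells titled KO reads Runx1b:RFP/WT, so they are called titled KO throughout. A separate E10.5 set, Gfi1:Tomato/WT, gave 39 cells positive for angiotensin-converting enzyme and GFI1 (ACE+ GFI1+, an HE gate), ACE+ GFI1- cells (7.96% of all cells) and 14 ACE- GFI1- Endo cells.

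The Endo gate took TER119-, CD41-, CD45-, KIT- and CDH5+ cells without a reporter, and the HE gate the same cells with GFI1 but not GFI1B, or with RUNX1b. EHT cells were CD41+ KIT+ CDH5+ GFI1+ GFI1B- and IAHC cells were also GFI1B+. The Mes gate was CDH5- RUNX1b+. In the Runx1b line the gate therefore read a reporter of one of the 4 genes itself, and a Runx1 difference between HE and Endo of that line is in part what the sort selected.

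RUNX proteins bind DNA through the Runt domain, and CBFB, which makes no DNA contact of its own, raises that affinity and stabilises the complex. RUNX1 is needed for the endothelial-to-hematopoietic transition of the AGM, where it acts in part through Gfi1 and Gfi1b, repressors of the endothelial program. RUNX2 is the master regulator of bone formation, and RUNX3 is best known from T cells and from sensory neurons. Runx1 is transcribed from a distal promoter (P1, the Runx1c form) and a proximal one (P2, Runx1b), and a gene count pools both.

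Runx1 (ENSMUSG00000022952) spans positions 92601466 to 92826149 on the minus strand of chromosome 16 in GRCm38, with 9 exon blocks. Runx2 (ENSMUSG00000039153) lies on the minus strand of chromosome 17, 44495987 to 44814797, with 11 exon blocks. Runx3 (ENSMUSG00000070691) lies on the plus strand of chromosome 4, 135120652 to 135177990, with 9 exon blocks, and Cbfb (ENSMUSG00000031885) on the plus strand of chromosome 8, 105170674 to 105217989, with 7. An antisense gene overlaps 0.881% of the exon bases of Runx1 (Gm26626) and 5.87% of those of Runx2 (Runx2os1), and since no source used here gives the strand setting of the counting, reads there cannot be assigned to either gene. All 4 had promoter windows in the RefSeq table of GRCm38.p6, 6 windows in all, from 250 bases before the start site to 50 after it. The 2 windows of Runx1 are shown because the reporter of the Runx1b line belongs to the proximal one only. Capitals mark the RUNX motif ACCACA (searched on both strands, also as TGTGGT), and both sequences read 5′ to 3′ on the minus strand.
Runx1 distal, chr16:92826025-92826324: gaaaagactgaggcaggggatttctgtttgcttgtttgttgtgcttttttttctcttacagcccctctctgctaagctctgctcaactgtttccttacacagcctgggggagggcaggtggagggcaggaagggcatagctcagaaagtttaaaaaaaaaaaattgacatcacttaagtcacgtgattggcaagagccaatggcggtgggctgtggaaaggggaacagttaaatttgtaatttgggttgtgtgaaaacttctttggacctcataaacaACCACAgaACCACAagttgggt
Runx1 proximal, chr16:92697280-92697579: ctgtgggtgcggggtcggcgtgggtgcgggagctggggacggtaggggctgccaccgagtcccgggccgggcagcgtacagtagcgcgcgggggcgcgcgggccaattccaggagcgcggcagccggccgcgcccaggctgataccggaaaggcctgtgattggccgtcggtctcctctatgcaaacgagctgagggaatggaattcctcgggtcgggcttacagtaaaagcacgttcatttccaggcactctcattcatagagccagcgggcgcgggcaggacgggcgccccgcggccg

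The distal window held 2 matches and 45% G or C, and the proximal window held no match and 69% G or C. Of the other windows, Runx2 held 3 matches and the distal one of Runx3 held 2, while the proximal window of Runx3 and that of Cbfb held none. The motif was in 16.8% of the 32851 windows of the table. The 5′-most windows of the 3 RUNX genes also shared a run of 18 bases, which is shown in capitals within 30 bases of each gene's own strand because it is the sequence these family members have in common.
Runx1, chr16:92826025-92826054, minus strand: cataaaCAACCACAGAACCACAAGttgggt
Runx2, chr17:44814583-44814612, minus strand: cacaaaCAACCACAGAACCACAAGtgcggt
Runx3, chr4:135120503-135120532, plus strand: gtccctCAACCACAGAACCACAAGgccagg

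The run lay at positions 27 to 44 after the listed start site in Runx1, 22 to 39 in Runx2, and from -136 to -119 in Runx3. It holds the motif in tandem, and 4 of the 32851 windows (0.0122%) contained it, the remaining one being that of the predicted gene Gm16225, which overlaps the Runx3 window on the opposite strand. These matches describe letters and were tied to no measurement, since the counts do not separate promoters.

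Cells had a median of 598000 reads and 6576 genes, with 12 to 5652968 reads in a cell, and the median cell of a group had 305240 to 3977381 reads. Levels are given as counts per 1000000 reads summed over a group (CPM), with exact Poisson 95% intervals. A cell counts as positive for a gene from 1 read on, and such shares have Clopper-Pearson 95% intervals. Both cover counting error only, because reads without molecular identifiers are not independent molecules and 1 group is 1 sample. Some gates held cells of other kinds. In 14 of 22 IAHC cells at E11.5, 11.8% of Runx1b het HE cells and 16 of 95 E10.5 HE cells at least 1% of reads were globin, called erythroid-like below. In the Runx1b HE gate 97.8% of titled KO cells had reads of 10 or more of 20 pan-endothelial genes, against 50% of het cells. In that het gate 11 of 11 mesenchyme markers were read, at a sum of 5060 CPM, against 6143 CPM in Mes het cells and 80.4 CPM in HE at E10.5 of the Gfi1/Gfi1b line. The Gfi1 and Runx1 rows check the KO labels only in part, since a knock-in can leave transcript of the gene. Gfi1 was at 218.9 CPM in HE labelled Gfi1/Gfi1b KO, against 55.2 CPM in het HE, and Runx1 reads were found in 47.3% of Mes cells labelled Runx1b KO, against 39.3% of those labelled het.

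Runx1 was the family member with the widest range. It stood at 233.7 CPM in EHT at E10.5, 194.04 in EHT titled E11.5 and 183.9 in IAHC at E10.5, and all 41, 41 of 42 and all 42 cells of these groups had reads. HE labelled Gfi1/Gfi1b KO followed with 98.5 CPM and 78.6% of cells. The 4 groups next in order lay close together, at 68.01 CPM in HE titled E11.5, 65.4 in IAHC at E11.5, 64.2 in HE at E11.5 and 61.4 in HE at E10.5, and the intervals of neighbours overlapped. ACE+ GFI1+ cells had 56.03 CPM. The Runx1b line was lower, with 35.3 CPM in Mes het, 20.1 in Mes KO, 17.8 in HE het and 1.47 in HE titled KO. Plain endothelium had 9.12 CPM in Endo titled E11.5, 2.71 in the Runx1b line, 0.777 at E11.5, 0.686 in the ACE- GFI1- sort and no read in 74 cells of Endo at E10.5, where the limit for a count of 0, taken as 3 cells of the total, is 4.05% of cells. Of the Runx1 reads of Endo, 1 cell held 63.2% in the titled E11.5 group, 100% in the Runx1b line and 97.1% at E11.5. The top cell held 60% in the ACE- GFI1- sort and 51.9% in HE titled E11.5, against 6.88% in EHT at E10.5. ACE+ GFI1- cells had 1.19 CPM, with 45.5% of the reads in 1 cell. In the order of 19 groups, 7 of the 18 neighbouring pairs had overlapping CPM intervals and 15 had overlapping intervals of the share of cells.

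**Figure D1:**
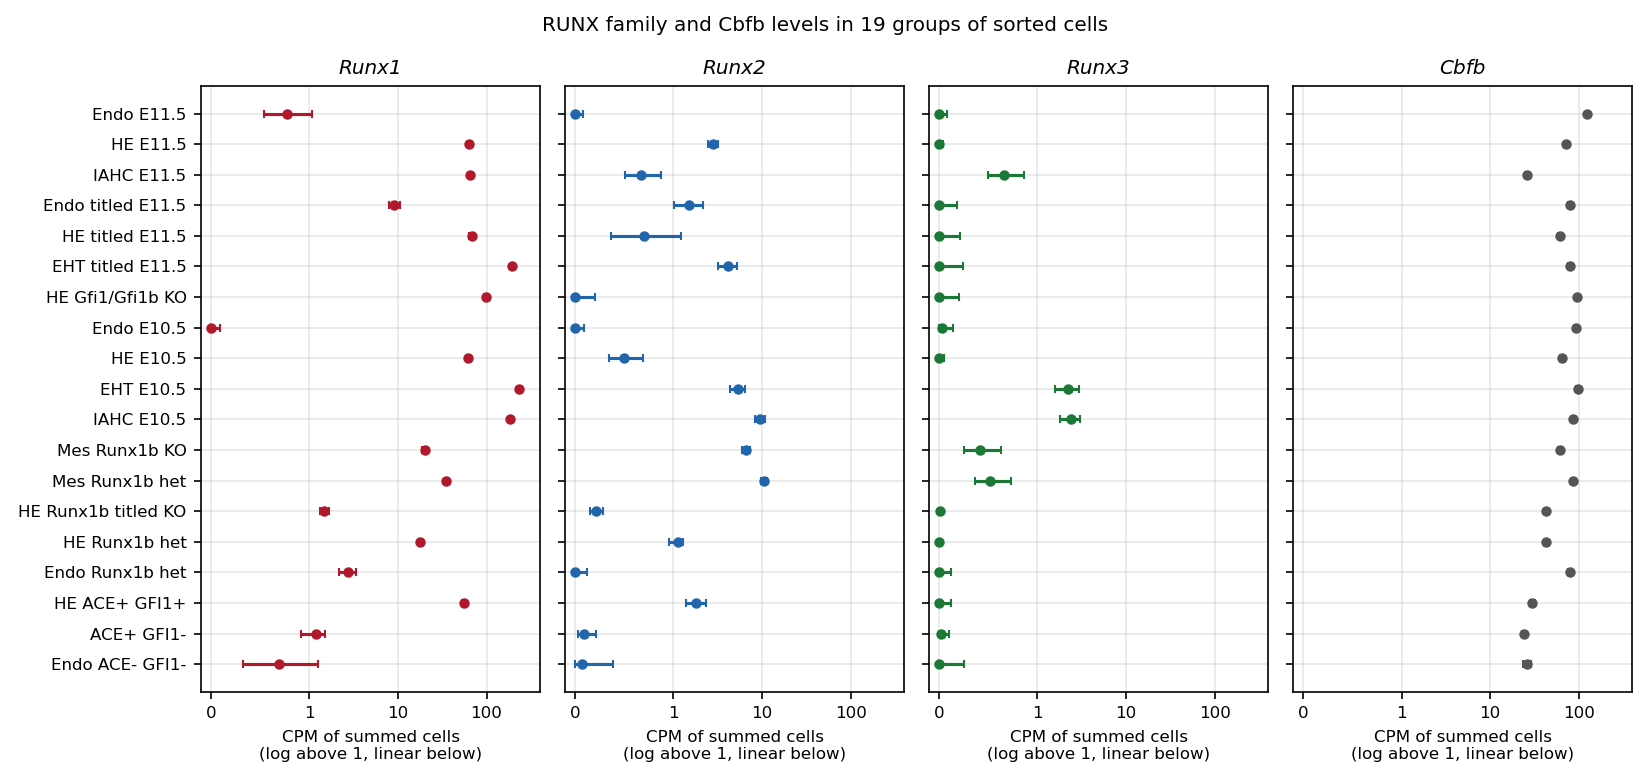
Levels of the 4 genes in the summed reads of each group, in CPM on an axis that is logarithmic above 1 and linear below. Points are groups and bars are exact Poisson 95% intervals. Runx1 runs between 0 CPM in Endo and 233.7 CPM in EHT at E10.5, whereas Cbfb stays between 24.2 and 125.3 CPM.

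Cells of a gate differed widely. Within EHT at E10.5 the lowest cell had 18.4 CPM of Runx1, the median cell 202.9 and the highest 858.0, and in IAHC the values were 13.2, 156.99 and 524.3 CPM. In HE at E10.5 the median cell had none, 45 of 95 cells had reads (47.4%, interval 37.03 to 57.9%), and the median among those 45 was 103.035 CPM. In HE at E11.5, 12 of 40 cells had Runx1 reads, with a median of 156.2 CPM among them, and in ACE+ GFI1+ cells 15 of 39, with a median of 64.9 CPM. The GFI1-sorted HE groups thus held cells without a Runx1 read beside cells whose values overlapped those of EHT. With every cell thinned to 100000 reads the E10.5 shares were 0% in Endo, 45.4% in HE, 99.6% in EHT and 99.04% in IAHC.

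**Figure D2:**
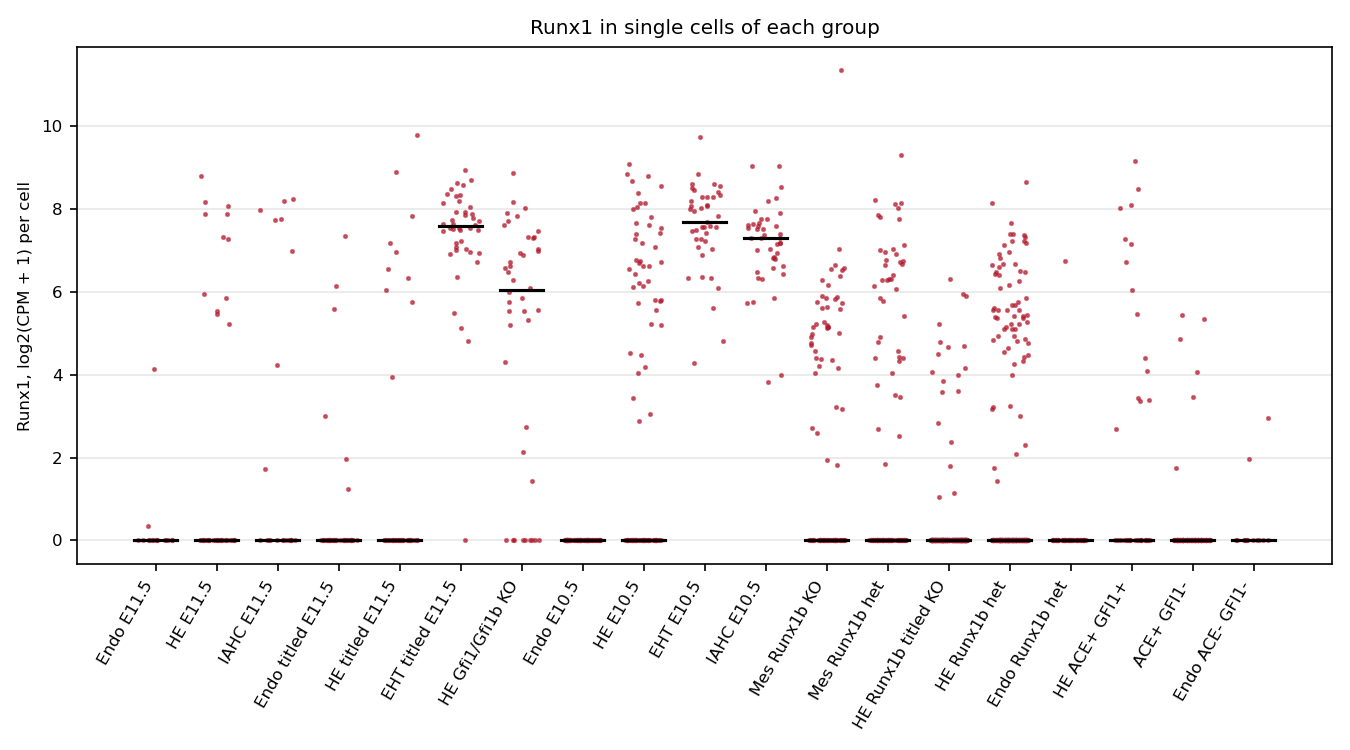
Runx1 in every cell, as log2(CPM + 1), by group. Points are cells and black bars are medians. The median cell is above 0 in EHT, in IAHC at E10.5 and in HE labelled Gfi1/Gfi1b KO, and the point above 11 in Mes KO is 1 read in a cell of 386 reads.

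HE recurred beside Endo in 4 sort sets, which allowed the only test over samples. Runx1 was at 61.4, 64.2, 17.8 and 56.03 CPM in HE of the Gfi1/Gfi1b E10.5, E11.5, Runx1b het and ACE sets, against 0, 0.777, 2.71 and 0.686 CPM in Endo. It averaged 49.9 ± 21.6 CPM in HE and 1.04 ± 1.16 CPM in Endo (SD, n = 4 sets each) and was higher in HE of 4 of 4 sets, with no overlap. In the Runx1b het set the HE gate itself read a Runx1 reporter. Erythroid-like cells aside, Runx1 there was at 4.90 CPM in HE cells with 10 or more pan-endothelial genes. In HE cells with fewer it was at 36.05 CPM, and the 2.71 CPM of Endo came from 1 cell. For Runx1, edgeR's quasi-likelihood test with the set as a block gave a log2 difference of 6.32 ± 1.53 (SE) and a Benjamini-Hochberg adjusted p of 0.114. Runx2 averaged 1.56 ± 0.9998 CPM in HE and 0.0171 ± 0.0343 CPM in Endo, again higher in 4 of 4 sets, with an edgeR adjusted p of 0.0821. Its HE values rest on 3, 2, 7 and 2 cells with reads, of which 1 cell held 85.3%, 97.5%, 29.7% and 78.6% of the reads (Gfi1/Gfi1b E10.5, E11.5, Runx1b het and ACE sets). In the Runx1b het set the level was 2.07 CPM in cells with fewer than 10 pan-endothelial genes and 0.663 CPM in cells with 10 or more, erythroid-like cells aside. Its Endo value rests on 1 read, in the ACE set, so the fitted log2 difference of 7.30 ± 1.48 depends on the prior count and sets no bound. Cbfb averaged 52.3 ± 19.4 CPM in HE and 80.7 ± 41.3 CPM in Endo and was lower in HE of 3 of the 4 sets, at a log2 difference of -0.43 ± 0.22 and an edgeR adjusted p of 0.366. Runx3, with 1 read in all 8 sums, did not pass the filter on low counts.

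None of the 3 tested members passed with edgeR, where 1.40% of 14553 genes did. An unadjusted p under 0.05 was found for 2 of them (Runx1 and Runx2), and for 2817 of the 14553 genes. Runx1 passed with DESeq2 (adjusted p = 2.96e-08), without the set as a block (edgeR, 0.0272) and with thinned cells (edgeR, 0.0153), and Runx2 with DESeq2 (0.00561) and without the block (edgeR, 0.0435). These 3 settings called 17.8%, 3.04% and 6.80% of the genes tested. The edgeR adjusted p of Runx1 lay between 0.0153 and 0.355 over the settings tried, that of Runx2 between 0.0435 and 0.324. In HE of the ACE set 489 of 1728 Runx1 reads came from 1 cell (28.3%).

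**Figure D3:**
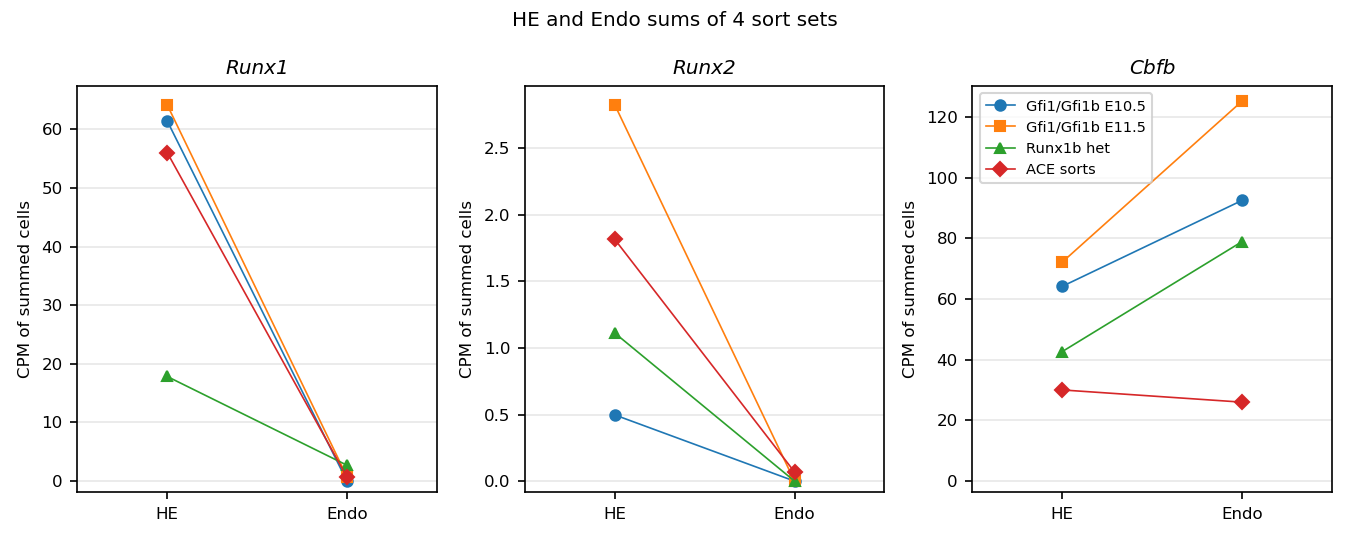
CPM of Runx1, Runx2 and Cbfb in the HE and Endo sums of 4 sort sets, with a line joining the 2 gates of a set. Runx1 and Runx2 are higher in HE of all 4 sets, and Cbfb is higher in HE of the ACE set only.

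At E10.5, EHT cells were compared with HE, the population that precedes them. Runx1 was 3.80-fold higher in EHT (233.7 against 61.4 CPM, counting interval 3.65 to 3.97) and Runx2 10.7-fold higher (5.34 against 0.497 CPM, 7.25 to 16.3). These 2 members passed a 2-fold change with at least 5 CPM in either group, where 23.6% of all genes measured did. The Runx1 ratio was 2.89 without the erythroid-like cells of HE. Runx2 without its top cell in each group was under 5 CPM in both and so no longer counted, while its ratio was 50.7. Cbfb was 1.52-fold higher (97.6 against 64.2 CPM), and the median gene had a log2 ratio of 0.20. Between IAHC and EHT no member passed, where 15.8% of genes did. Runx1 was at 0.787 of the EHT level (183.9 against 233.7 CPM), Cbfb at 0.894 (87.2 against 97.6 CPM) and Runx2 at 1.77 (9.45 against 5.34 CPM, 1.41 to 2.24), which became 2.07 without the top cell of each group.

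Between E11.5 and E10.5 the HE gate had similar Runx1 levels, at 64.2 against 61.4 CPM (ratio 1.04, 1.003 to 1.09). Without erythroid-like cells the direction turned, to 1.26-fold lower at E11.5, and the share of all cells with reads was 30% against 47.4%, with overlapping intervals. Cbfb in HE was at 72.2 against 64.2 CPM, and 1.17-fold lower at E11.5 without erythroid-like cells. No member passed 2-fold in HE or in Endo, where 31.9% and 28% of genes did, and in Endo Cbfb was at 125.3 against 92.5 CPM. In IAHC 3 members were lower at E11.5, where 62.5% of genes passed. These were Runx1 at 65.4 against 183.9 CPM (ratio 0.355), Runx2 at 0.674 against 9.45 CPM (0.0713) and Cbfb at 25.95 against 87.2 CPM (0.298). The 14 erythroid-like cells of IAHC at E11.5 held 1 cell with Runx1 reads and none with Cbfb or Runx2 reads. Without them IAHC at E11.5 had 200.4 CPM of Runx1, above the 183.9 CPM at E10.5, and 80.5 CPM of Cbfb, and Runx2 alone still passed, at 2.09 CPM in 8 cells.

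Loss of GFI1 and GFI1B, the repressors downstream of RUNX1, was compared in HE at E10.5. Runx1 was at 98.5 CPM in HE labelled KO, against 61.4 CPM in het HE (ratio 1.60, 1.52 to 1.70), and 33 of 42 cells had reads, against 45 of 95 (78.6% against 47.4%, intervals 63.2 to 89.7% and 37.03 to 57.9%). The shares did not overlap within counting error. Cbfb was at 96.96 against 64.2 CPM (ratio 1.51). Runx2 had no read in 42 KO cells, against 34 reads in 3 of 95 het cells. No member passed 2-fold, where 17.1% of genes did. Among cells with 10 or more pan-endothelial genes that were not erythroid-like, the shares with Runx1 reads were 83.8% of 37 KO cells and 56.4% of 78 het cells, with intervals that came close without overlapping (67.99 to 93.8% and 44.7 to 67.6%), and the CPM was 106.2 against 81.97.

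In the Runx1b line, Runx1 was at 1.47 CPM in HE titled KO, against 17.8 CPM in het HE (ratio 0.0824, 0.0728 to 0.0930), and 6.86% of cells had reads, against 26.3%. It was the member that passed 2-fold, where 15.8% of genes did, and Cbfb was at 43.3 against 42.7 CPM. The het reads lay mostly in cells with few endothelial genes. Among het HE cells that were not erythroid-like, 50.5% of those with fewer than 10 pan-endothelial genes had Runx1 reads, at 36.05 CPM, and 14 of 130 of those with 10 or more, at 4.90 CPM. Of the erythroid-like het HE cells 4 of 31 had reads. In the titled KO the endothelial cells made up nearly the whole sort, with reads in 17 of 270, at 1.15 CPM. Within endothelial cells the shares were 6.30% in titled KO and 10.8% in het (intervals 3.71 to 9.89% and 6.01 to 17.4%), which overlapped. The CPM intervals, 1.01 to 1.31 in titled KO and 4.40 to 5.44 in het, did not overlap. Over all cells with 10 or more pan-endothelial genes Runx1 was 4.22-fold lower in titled KO. Since neither group reached 5 CPM this ratio no longer counted as past 2-fold. How far the gate's make-up accounts for the difference between all cells was not tested.

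**Figure D4:**
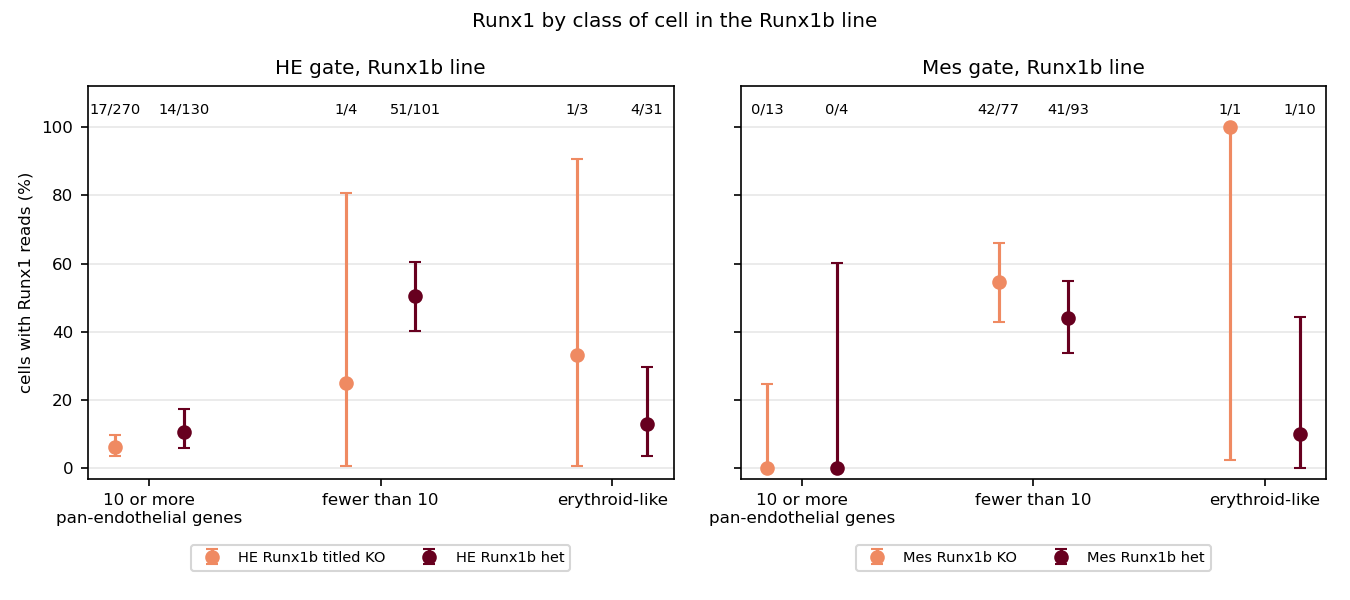
Share of cells with Runx1 reads by class of cell, in HE and Mes of the Runx1b line, with exact 95% intervals and the counts of cells above. In het HE, among cells that are not erythroid-like, the share is 50.5% in those with fewer than 10 pan-endothelial genes and 10.8% in those with 10 or more.

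In the Mes gate Runx1 was at 20.1 CPM in KO cells, against 35.3 CPM in het cells (ratio 0.570, 0.529 to 0.614), while 47.3% of KO cells had reads, against 39.3% of het cells, with overlapping intervals. The median among cells with reads was 34.8 CPM in KO and 77.4 CPM in het. The mean over cells ran the other way, at 47.9 against 41.7 CPM, because of a KO cell with 1 Runx1 read among 386. The gate's make-up differed. Cells with 10 or more pan-endothelial genes were 14.3% of KO and 3.74% of het cells, and macrophage markers summed to 4.44 and 479.2 CPM. Among cells with fewer than 10 pan-endothelial genes that were not erythroid-like, Runx1 was at 23.5 CPM in KO and 40.8 CPM in het. The part of macrophages in the Runx1 difference was not tested. Runx2 was at 6.60 against 10.6 CPM and Cbfb at 61.1 against 86.9 CPM. No member passed 2-fold in Mes, where 15.4% of genes did. Between the gates, Mes het cells had 1.98 times the Runx1 of het HE (35.3 against 17.8 CPM), 9.54 times the Runx2 (10.6 against 1.11 CPM) and 2.04 times the Cbfb (86.9 against 42.7 CPM), so that 2 members passed, Runx2 and Cbfb, where 18.6% of genes did. Without erythroid-like cells Runx2 and Runx1 (2.05-fold) passed and Cbfb (1.94-fold) did not, and by the mean over cells all 3 passed. The het HE gate was mixed: 50% of its cells had 10 or more pan-endothelial genes. Its mesenchyme markers summed to 5060 CPM, against 6143 CPM in Mes het. Erythroid-like cells aside, those with 10 or more had 4.90 CPM of Runx1 and 0.663 CPM of Runx2. Those with fewer had 36.05 and 2.07 CPM, while Cbfb was higher in the first, at 58.1 against 40.7 CPM. The part of this mixture in the ratios was not tested. The Runx2 level of Mes het rested on few cells: 6 Mes het cells had reads (5.61%), and 1 of them held 54.4% of the reads.

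The ACE sorts split ACE+ cells by the GFI1 reporter. Runx1 was at 56.03 CPM in ACE+ GFI1+ cells, against 1.19 CPM in ACE+ GFI1- cells (ratio 47.3, 36.97 to 61.4), and was read in 38.5% of cells, against 5.17%. It was the member that passed, where 11.3% of genes did. Cbfb was at 30.03 against 24.2 CPM and Runx2 at 1.82 against 0.0898 CPM, below the minimum. ACE+ GFI1- cells and ACE- GFI1- Endo cells had 1.19 and 0.686 CPM of Runx1 (ratio 1.73, 0.883 to 3.77) and 24.2 and 25.999 CPM of Cbfb. No member passed there, where 33.4% of genes did.

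Runx2, the bone regulator, was read in 71 of the 1457 cells. The blood-forming gates and the mesenchyme held most of them. In the blood-forming gates it was read in 16 of 42 IAHC cells at E10.5 (38.1%, 23.6 to 54.4%), 7 of 41 EHT cells at E10.5 and 11 of 42 EHT cells titled E11.5, at 9.45, 5.34 and 4.12 CPM. With thinned cells these shares were 28.8%, 14.2% and 19.1%. All 16 IAHC and all 7 EHT cells at E10.5 with Runx2 also had Runx1 reads, as every cell of those gates did, and 10 of 11 in EHT titled E11.5. The Runx1 level did not separate them: the median was 134.7 CPM in the 16 IAHC cells with Runx2 and 160.6 CPM in the 26 without. None of these 34 cells had reads of the mesenchyme genes Pdgfra or Col1a1. That does not set them apart, since Pdgfra was read in only 2.38%, 2.44% and 7.14% of all cells of these gates. Col1a1 had no read in either EHT group. Of 11 mesenchyme markers 9, 8 and 7 were read in the gates, at sums of 162.5, 103.3 and 40.97 CPM. Ptprc, which encodes the pan-leukocyte antigen CD45, was read in 7 of the 16, 2 of the 7 and 10 of the 11, and in 57.1%, 19.5% and 73.8% of all cells of the gates.

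In the mesenchymal setting Runx2 was read beside other genes. In Mes het 6 cells had Runx2 reads, 5 of them with Pdgfra, all 6 with Col1a1 and 1 with Sp7, the osteoblast factor that acts below RUNX2, and 1 of the 6 had Runx1. In Mes KO 9 of 91 cells had Runx2, of which 4 had Pdgfra, 6 Col1a1 and 2 Runx1. Among the 7 such cells of the Runx1b het HE gate, 5 had Col1a1 and 2 had 10 or more pan-endothelial genes. Plain Endo had Runx2 reads in 2 cells of all 5 sorts, 30 reads in a cell titled E11.5 and 1 read in the ACE set. The rest were 3 cells of HE at E10.5, 2 of HE at E11.5, 1 of HE titled E11.5, 2 of IAHC at E11.5, 2 of ACE+ GFI1+, 1 of ACE+ GFI1- and 2 of HE titled KO. The 4 groups listed at 0 were Endo at E11.5, at E10.5 and of the Runx1b line, and HE labelled Gfi1/Gfi1b KO. In the order of levels, 15 of 18 neighbouring pairs had overlapping intervals.

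Runx3, the T cell and sensory neuron member, was read in 14 cells, with 220 reads in all. IAHC at E10.5 held 5 of them (11.9%, 3.98 to 25.6%, 2.37 CPM) and EHT at E10.5 held 3 (2.19 CPM, with 82.2% of reads in 1 cell), all with Runx1 and Cbfb. EHT titled E11.5, with 42 cells, had no Runx3 read (limit 7.14% of cells at a count of 0). The 95% intervals of the shares in IAHC at E10.5 and EHT titled E11.5 overlapped. Of the other 6 cells, 3 had a lone read. Runx3 was at 0 in 11 of 19 groups and reached 5 CPM in none, so it entered no count of members past 2-fold.

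**Figure D5:**
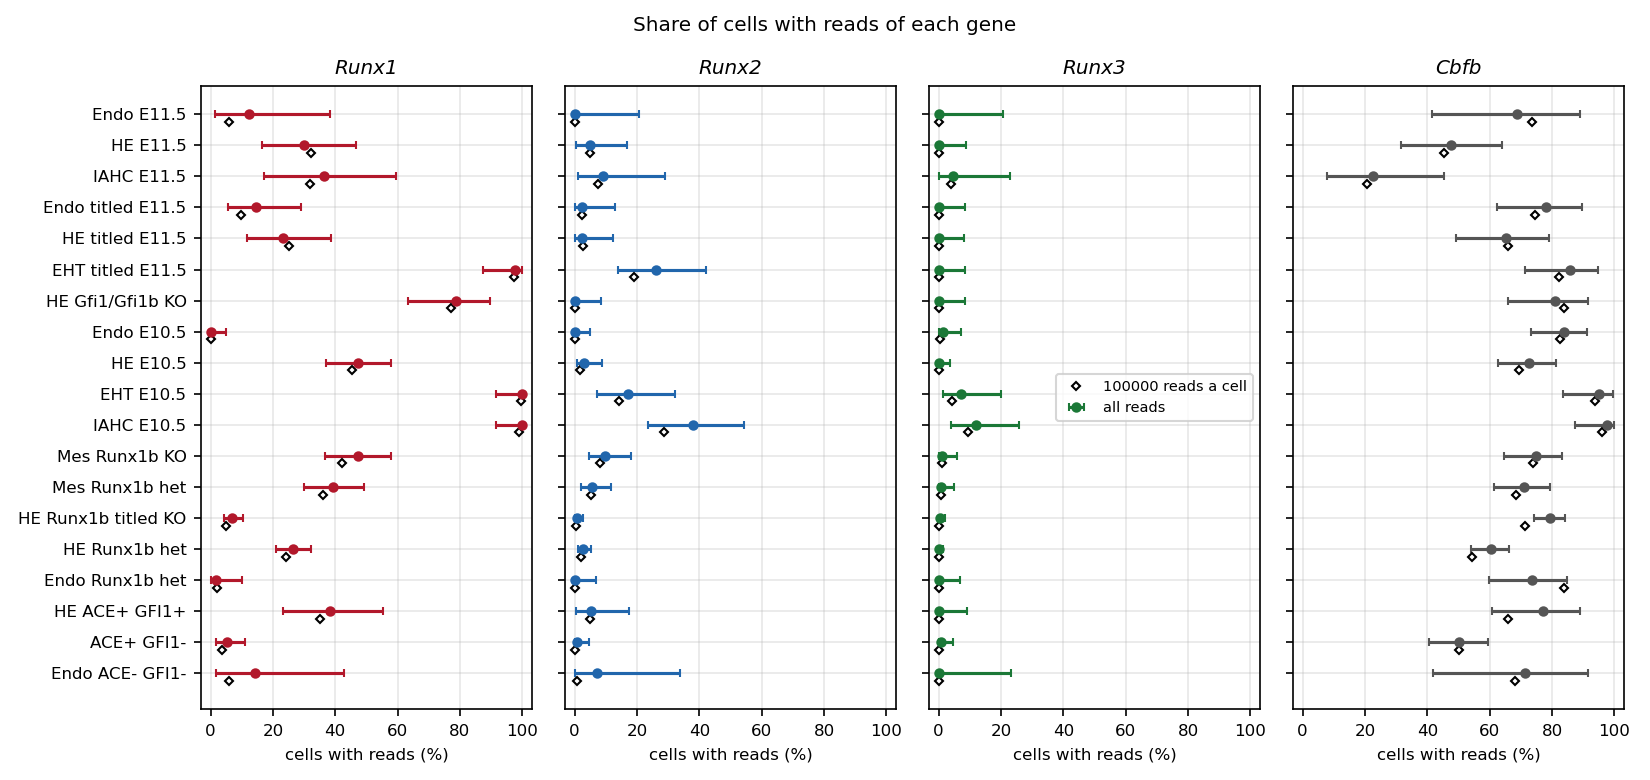
Share of cells with reads of each gene, by group. Filled points are all reads with Clopper-Pearson 95% intervals, and open diamonds are the expected shares at 100000 reads a cell. Runx2 and Runx3 reach 38.1% and 11.9% in IAHC at E10.5, and Cbfb lies between 22.7% in IAHC at E11.5 and 97.6% in IAHC at E10.5.

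Cbfb, the partner subunit, was read in 1035 of 1457 cells and in every group. The highest level was 125.3 CPM in Endo at E11.5, a group in which Runx1 was at 0.777 CPM, and the lowest were the 3 ACE sorts, at 30.03, 24.2 and 25.999 CPM, and IAHC at E11.5, at 25.95 CPM. Levels were also divided by the union of all annotated exons, 3.48 kb for Cbfb and 12.025 kb for Runx1. On that scale EHT at E10.5 had 28.03 CPM per kb of Cbfb and 19.4 of Runx1. IAHC at E10.5 had 25.1 and 15.3, and HE at E10.5 had 18.4 and 5.11. The transcripts in use can be shorter than the union, so these values do not settle the order of Cbfb and Runx1. All ACE sorts came from a separate table, so their lower Cbfb cannot be told apart from that table's processing.

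The cells most often without Cbfb were erythroid-like. Among cells with 100000 reads or more, 3 of 80 erythroid-like cells had Cbfb reads (3.75%, 0.780 to 10.6%), against 1028 of 1326 other cells (77.5%, 75.2 to 79.7%), at a median of 870598 and 596695 reads and of 4141 and 6730 genes per cell. Runx1 was read in 11 of the 80, against 423 of the 1326, and Runx2 and Runx3 in none of the 80. The levels of Cbfb were 0.597 and 65.5 CPM. Globin transcripts take up reads in the erythroid-like cells, and the part of this in the difference was not tested.

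Of the cells with a RUNX read, 382 also had Cbfb reads and 89 had none. By gene, 424 cells had 1 RUNX gene, 43 had 2 and 4 had all 3. The 4 cells with all 3 were 3 of IAHC and 1 of EHT at E10.5. Cells with 2 RUNX genes were 15 of 42 in IAHC at E10.5, 8 of 41 in EHT at E10.5 and 10 of 42 in EHT titled E11.5, against 3 of 95 in HE at E10.5. Whether Cbfb was read more often in cells with Runx1 varied by group. In HE at E10.5 37 of 45 cells with Runx1 had Cbfb (82.2%), against 32 of 50 without (64%), but without erythroid-like cells the counts were 37 of 44 and 32 of 35. In Mes het 37 of 42 cells with Runx1 had Cbfb (88.1%, 74.4 to 96.02%), against 39 of 65 without (60%, 47.1 to 71.96%), and without erythroid-like cells 37 of 41 and 39 of 56, whose intervals overlapped. In the Runx1b het HE gate the shares were 62.3% with Runx1 and 59.6% without, and 66.2% and 68.7% once erythroid-like cells were left out. Cells with and without Runx1 had medians of 6738 and 6122 genes in HE at E10.5 and 6406 and 6107 in Mes het.

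Genes that RUNX1 is known to bind and switch on in blood cells were described over a list of 17. It includes Gfi1 and Gfi1b, the genes of the gates, and Itga2b, which encodes CD41, a marker of the EHT and IAHC gates. Between HE and Endo 13 were tested with edgeR, and 3 were called higher in HE and none lower, where 1.40% of all genes were called. The median log2 difference was 4.19, against 0.09 over all genes. The RUNX2 skeletal list, described below, had a median of 4.22 in the same test. The 3 were Spi1, the myeloid factor PU.1, at 24.7 ± 5.4 CPM in HE and 0.0234 ± 0.0324 CPM in Endo (adjusted p = 0.0220), Nfe2, a megakaryocyte and erythroid factor, at 48.6 ± 20.7 and 2.78 ± 1.33 CPM (0.0220), and Gfi1, which the gate selected, at 61.1 ± 41.9 and 0.137 ± 0.274 CPM (0.0331; SD, n = 4 each). DESeq2 called 9 of the 13, where it called 17.8% of all genes. Without the ACE set edgeR called 0 of 15182 genes, so these 3 calls were lost, with 1977 genes at an unadjusted p under 0.05. They were also lost without the Gfi1/Gfi1b E10.5 set and without the Runx1b set, and the edgeR adjusted p of Spi1 lay between 0.00124 and 0.125 over the settings tried. Erythroid markers differed between the gates, at sums of 145689, 2794, 89433 and 63.6 CPM in HE of the Gfi1/Gfi1b E10.5, E11.5, Runx1b het and ACE sets, against 53.1, 12.4, 14.97 and 3.16 CPM in Endo, all 11 markers being read in HE of the first 3. Without erythroid-like cells Nfe2 lost its call (log2 difference 2.96, edgeR adjusted p = 0.0583) and Gfi1 was called (0.0306). Spi1 then did not pass the filter on low counts, since 99.4% of its reads in HE of the Runx1b het set lay in 5 of the 31 erythroid-like cells. In EHT against HE, where 23.6% of all genes passed, 11 of 14 measured targets were past 2-fold higher and 1 lower. The median log2 ratio was 2.20, against 0.20 over all genes. Itga2b, whose product CD41 the EHT gate selected, was at 38.4 against 14.4 CPM. Among the higher targets Mpo, the granule enzyme myeloperoxidase, was at 123.7 CPM in EHT, against 1 read in HE, and Csf3r, the G-CSF receptor, at 18.8 against 0.863 CPM. The lower one, named after its values were seen, was Alox12, a platelet lipoxygenase, at 2.96 against 36.7 CPM. HE held 16 erythroid-like cells of 95 and EHT none of 41, and without them the counts were again 11 higher and 1 lower of 14. In IAHC against EHT, where 15.8% of all genes passed, 8 of 14 were higher and 1 lower (median 1.33, against -0.02). Runx1 itself was lower, at 0.787 of the EHT level. Gfi1b, which the IAHC gate selected, was at 156.4 against 50.06 CPM. Vav1, a signalling exchange factor of blood cells, was at 49.1 against 11.7 CPM, and Csf1r, the macrophage colony-stimulating factor receptor, at 9.81 against 2.62 CPM.

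In HE titled KO against het HE of the Runx1b line, where 15.8% of all genes passed, 9 of 11 targets were past 2-fold lower and none higher. The median log2 ratio was -4.02, against 0.09 over all genes. Without erythroid-like cells 5 targets were measured, 3 lower and 1 higher, and the median was -1.32. Of the RUNX2 skeletal list 3 of 5 were lower and 1 higher in that comparison (median -4.80). In Mes KO against het, where 15.4% of all genes passed, 8 of 10 RUNX1 targets were lower and 1 higher (median -4.37, against 0.06). Without erythroid-like cells 6 of 8 were lower and 1 higher. Spi1 was at 0.405 against 20.04 CPM in HE and 0.0393 against 32.96 CPM in Mes. In HE without erythroid-like cells Spi1 was at 0.411 in titled KO and 0.142 CPM in het. Gfi1b was at 0.310 against 28.6 CPM in HE, with no read in either group without those cells. Csf1r, which is also on the macrophage list, was at 1.55 against 92.1 CPM in Mes. Macrophage markers moved with the Mes difference: 3 of 9 were read in Mes KO, at a sum of 4.44 CPM with Adgre1, C1qa, C1qb and C1qc at 0, against 9 of 9 at 479.2 CPM in Mes het. Ptprc was at 0 in Mes KO, against 48.3 CPM in Mes het. In HE the mesenchyme markers summed to 114.01 CPM in titled KO and 5060 CPM in het. The part of these other cells in the target genes was not tested. In HE labelled Gfi1/Gfi1b KO against het, where 17.1% of all genes passed, 3 of 9 targets were higher and 4 lower (median 0.62, against 0.07). Without erythroid-like cells 2 were higher and 5 lower (median -1.74). In ACE+ GFI1+ against ACE+ GFI1- cells, where 11.3% of all genes passed, 4 of 9 were higher and 1 lower (median 0.95, against 0.06). Gfi1, which that sort selected, was at 104.1 against 0.772 CPM and Spi1 at 22.2 against 2.46 CPM. In ACE+ GFI1- against ACE- GFI1- cells, Runx1 was at 1.19 against 0.686 CPM and 33.4% of genes passed. There 4 of 4 measured RUNX1 targets were higher (median 3.59), and 4 of 4 genes of the RUNX2 skeletal list (median 4.39).

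Factors that occupy DNA beside RUNX1, directly or as part of a complex, a list of 12, were described in the same way. Between HE and Endo, where edgeR called 1.40% of all genes, 10 were tested and Spi1 alone was called, higher. The median log2 difference of the 10 was 0.53. In EHT against HE 2 of 11 were higher, Spi1 (244.7 against 24.1 CPM) and Myb (170.7 against 28.2 CPM), and the erythroid factor Gata1 was lower (1.85 against 75.5 CPM), so that 3 of 11 passed, where 23.6% of all genes did. Without erythroid-like cells Gata1 was at 1.85 in EHT and 0.348 CPM in HE, both below the minimum. Of 10 tested co-activators and modifiers, the kinase Hipk2 alone was called, at 137.8 ± 37.8 CPM in HE and 59.8 ± 7.7 CPM in Endo (adjusted p = 0.0382), a call that was lost when any 1 of the 4 sets was left out (edgeR adjusted p between 0.0803 and 0.166) and with no filter on low counts (0.0502). None of 12 co-repressors was called with edgeR. In edgeR 2 of them had an unadjusted p under 0.05, as did 2817 of the 14553 genes tested. DESeq2 called 3 of the 12, where it called 17.8% of all genes. In EHT against HE, where 23.6% of all genes passed, 1 of 12 co-repressors was past 2-fold, Tle2, at 14.4 against 4.13 CPM. Of 10 co-activators and modifiers 1 was, the kinase Cdk6, at 105.96 against 41.5 CPM. Cdk6 was not past 2-fold without erythroid-like cells (105.96 against 54.8 CPM). In IAHC against EHT Tle1 (8.50 against 23.4 CPM) and Tle3 (13.9 against 34.2 CPM) were past 2-fold lower, 2 of 12 co-repressors, where 15.8% of all genes passed.

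The RUNX2 skeletal list holds 14 genes of the skeleton, among them transcription factors that need not be RUNX2 targets. In the comparisons with Mes 8 were measured, and 0 to 6 in the others. In Mes het against het HE, where 18.6% of all genes passed, 4 of 8 were past 2-fold higher and none lower (median log2 ratio 1.07, against 0.13). They were the transcription factors Twist1, at 22.1 against 4.34 CPM, Msx2, at 15.1 against 5.45 CPM, and Dlx5, at 7.65 against 1.95 CPM, and Ibsp, a bone matrix protein, at 8.74 CPM against no read. The mesenchyme markers, Twist1 among them, summed to 6143 CPM in Mes het and 5060 CPM in het HE. In Mes KO against het, where 15.4% of all genes passed, 4 of 8 were lower, among them Sp7 at 1.59 against 5.39 CPM and Ibsp at 0.786 against 8.74 CPM. In EHT against HE, where Runx2 was higher and 23.6% of all genes passed, 0 of 4 were higher and 3 lower. Between HE and Endo none of the 6 tested with edgeR was called. In edgeR 2 of them had an unadjusted p under 0.05, as did 2817 of the 14553 genes tested. DESeq2 called 4 of the 6, where it called 17.8% of all genes. Of the list for RUNX3, 12 immune and neural genes, 5 were tested between HE and Endo. None was called with edgeR or had an unadjusted p under 0.05, and DESeq2 called 1 of the 5, against the same 17.8% of all genes. In the list 2 to 4 were measured in each comparison of 1 group with another.

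The genes most like each member across the 19 groups were found by Pearson's correlation of log2(CPM + 1), among 10102 genes. The groups differ in depth and in their share of erythroid-like cells, and many share a line, so the values are descriptions. Runx1 was followed most closely by Ptk2b, a focal adhesion family kinase (r = 0.949), Lyz2, lysozyme (0.907), Ifitm1 (0.905), Ptpn6, the phosphatase SHP-1 (0.892), and Selplg, the P-selectin ligand (0.892). Ptk2b reached 97.7 CPM in EHT at E10.5. For Runx2 the nearest were Pdlim4 (0.869), Cox4i2, Sh3bp1, Pigyl and Bcl7c (0.817 to 0.830), and for Runx3 they were Tuba8 (0.896), Trbc2 (0.854), Tespa1 (0.848), Slc22a3 (0.845) and Hgf (0.803), all highest in IAHC at E10.5. Runx3 is at 0 in 11 of the 19 groups, so its values rest on few points. For Cbfb they were Hnrnpu (0.9504), Atp5j (0.941), Cdv3 (0.925), Cetn3 (0.920) and Rad23b (0.920). By Spearman's correlation the 5 nearest genes included 2 of these 5 for Runx1, 4 for Runx2, 1 for Runx3 and 0 for Cbfb, and Trbc2 had 0.196 with Runx3.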

How the data were processed

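Single cells were sorted into plates and sequenced with a modified Smart-seq2 protocol without molecular identifiers. The authors deposited raw gene counts per cell in 2 tables, 1288 and 169 cells, the second holding the ACE sorts. Per the submitters' processing notes, bcl2fastq, STAR 2.4.2a, HTSeq 0.6.1p1, R 3.6.2 and GRCm38 were used. The 36131 genes held whole in both tables were kept. Left out were 1 row cut short in the larger table and, of the ACE table, 13454 genes (10.1% of reads) and 92 spike-in rows with 0 reads. Both tables entered the CPM with the kept genes only.

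Cells were grouped by title, giving 19 groups, and reads were summed per group. No label names an embryo or culture, so each group counts as 1 sample, and in the test over sort sets p-values measure the spread between sets, which may be technical. A gene counts as past 2-fold with a ratio of at least 2 and at least 5 CPM in either group, a sum under 3 reads being set to 3. Across all genes, HE was tested against Endo with edgeR 4.0.16 (quasi-likelihood, TMM, filterByExpr, sort set as block, Benjamini-Hochberg, threshold 0.05; R 4.3.3). The set is the pair, since both gates of a set share line, stage and table. DESeq2 1.42.0 was an alternative, and others were no block, no filter, leaving out each set, cells thinned to 100000 reads, other cell filters, fold 3 and 20 CPM. The edgeR step was tested on simulated data. Python 3.11.15, numpy 2.4.6, scipy 1.17.1, matplotlib 3.10.9 and GENCODE M21 were also used. The 4 members, the gene lists and the rule for named genes (up to 4 per list and comparison with the largest log2 ratio among those past the threshold, and 5 genes per member by correlation) were chosen with earlier results of these data known.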

Additional observations from a re-analysis of the deposited data

Results flagged for a closer look

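In Endo of the 4 sort sets, Runx2 was at 0.0686 CPM in the ACE set, which is 1 read, against none in the other sets, and Runx3 at 0.0249 CPM in the Gfi1/Gfi1b E10.5 set, also 1 read, against none in the others. With 3 of 4 values at 0, any single read gives the largest gap possible, so the usual chance rate of about 1 in 20 groups, which is for continuous values, does not apply and nothing is read from these. In all, 8 groups of 4 were looked at.

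Between E11.5 and E10.5 the Runx1 ratio was 1.04 in HE and 0.355 in IAHC, in opposite directions. The Cbfb ratio was 1.12 in HE and 1.35 in Endo, and 0.298 in IAHC. Without erythroid-like cells Runx1 and Cbfb in HE were 1.26-fold and 1.17-fold lower at E11.5, and in IAHC 1.09-fold higher and 1.08-fold lower. These differences between gates were not tested. In IAHC at E11.5, 14 of 22 cells were erythroid-like, against none of 42 at E10.5.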

How the results depend on the processing

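For HE against Endo, where 1.40% of the genes tested were called, the share was 17.8% with DESeq2 (2587 genes), 3.04% with no replicate block (442), 6.80% with thinned cells (784) and 3.47% in cells with 10 or more pan-endothelial genes (504), 0.599% with no filter on low counts (of 23554), and 0 to 0.895% when 1 set was left out. Without the ACE set edgeR called 0 genes, with 1977 at an unadjusted p under 0.05. The Runx1 log2 difference was 6.45 with DESeq2, 5.65 with no replicate block and 5.77 with thinned cells, and passed in each, and that of Runx2 was 7.23 with DESeq2 and 6.98 with no replicate block. Runx3 was tested only without the filter (log2 -1.58, edgeR adjusted p = 0.757), and Runx2 could not be tested in thinned cells.

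The number of members past 2-fold became 1 in EHT against HE without the top cell and at 20 CPM, 1 in IAHC against EHT without the top cell, and 1 in IAHC at E11.5 against E10.5 without erythroid-like cells and in cells with 10 or more pan-endothelial genes, where the Runx1 log2 ratio turned to 0.12 without erythroid-like cells. It became 0 in HE titled KO against het at 20 CPM and in cells with 10 or more pan-endothelial genes, where Runx1 was 4.22-fold lower but under 5 CPM in both groups. It became 1 in Mes het against het HE without the top cell, at 3-fold and at 20 CPM. The cause of these changes was not tested. Leaving out erythroid-like cells for co-detection and for the gene lists was chosen after seeing the data. It kept 56 shares of cells with both genes within their intervals and moved 1, and of the shares with the second gene among cells with or without the first it moved 7 and kept 97. The moved shares of Cbfb among cells without Runx1 were 91.4% in HE at E10.5, 68.7% in Runx1b het HE and 100% in IAHC at E11.5. The last of these is 1 of 1 cell. Among the 5 genes most like each member, 0 to 4 were shared between Pearson's and Spearman's correlation. Intervals cover counting error only, and among whole groups those of 14 or 16 cells limit the shares most.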
